A study of Mus musculus with 2 samples.

Results

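TRBV2 and TRBV4 are variable gene segments of the T cell receptor (TCR) beta chain. They were followed through the thymic CD4 single positive (SP) repertoire of 1 wild-type (WT) and 1 Btla-/- library. The WT library came from C57BL/6J mice and the other from C57BL/6-Btla KO mice, which lack the co-inhibitory receptor BTLA in the germline; mice were aged 8 to 12 weeks. CD4 SP cells were enriched from thymocytes by negative selection with a kit for naive CD4 T cells, and TCR transcripts were sequenced with the 10x Genomics V(D)J workflow. The number of mice behind each library is not given in the sources used here, and with 1 library per genotype no test between genotypes was possible. Only TCR chains were read, so the labelled cell type could not be checked against other markers. Members were all TRB chains called TRBV2 or TRBV4. They numbered 191 of 4141 TRB chains in the WT library and 223 of 5181 in the Btla-/- library, and all 414 were called TRBV2. No chain of either library carried the call TRBV4 (a count of 0 allows a share of up to 0.0724% in WT and 0.0579% in Btla-/-).

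A beta chain is built in the thymus by joining a V, a D and a J segment, and in each joint bases are trimmed and others are added. The V segment encodes the first and second complementarity determining regions (CDR1 and CDR2), which mostly touch the MHC molecule, and the first bases of the third (CDR3), the loop that reads the peptide. Each V segment ends at a recombination signal, a heptamer and a nonamer with a spacer between them, where the recombinase cuts.

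The chains of the Trbv4 gene were present under another name. The V region (framework 1 to framework 3, 270 bases) of all 497 chains called TRBV10 was identical to the Trbv4 gene of the GRCm38 genome. The segment named Trbv10 in the GENCODE M21 annotation is a pseudogene at chr6:41091940-41092228, and it shared 129 of 270 aligned bases (47.8%) with these chains. RefSeq describes Trbv4 as T cell receptor beta, variable 10, with the synonym Tcrb-V10. Of the 22 TRBV calls in the files, 20 mapped to the genomic segment of the same name, and the exceptions were TRBV10 and the joint call TRBV12-2+TRBV13-2, whose chains had the V region of Trbv13-2. The chains called TRBV10 are therefore described below as Trbv4-matched, a definition by sequence that was made after the data were seen. All 414 TRBV2 chains had the V region of Trbv2, so that call and gene name were the same there.

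Trbv2 (RefSeq synonym Tcrb-V4) lies on the plus strand at chr6:41047556-41047995 and Trbv4 at chr6:41059443-41059886, 11448 bases further on. Their V exons, the second of 2 exons each, are chr6:41047701-41047995 and chr6:41059592-41059886. The V exon of Trbv3, chr6:41048527-41048828, lies between them. The V regions of Trbv2 and Trbv4 were equal at 164 of 270 bases (60.7%). The stretch from CDR1 to CDR2 is shown because it is what the segments alone bring to the receptor, with both CDRs in capitals (GRCm38, plus strand); 413 of 414 TRBV2 chains and all 497 Trbv4-matched chains carried these CDR1 and CDR2 as annotated.
Trbv2, chr6:41047787-41047870: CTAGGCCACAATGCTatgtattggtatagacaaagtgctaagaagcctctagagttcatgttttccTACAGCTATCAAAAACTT
Trbv4, chr6:41059678-41059761: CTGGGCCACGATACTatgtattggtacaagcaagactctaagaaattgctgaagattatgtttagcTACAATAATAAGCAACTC

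The end of each segment is shown because it sets the start of the CDR3. It holds 17 germline CDR3 bases, then the heptamer, a spacer of 23 bases and the nonamer. Heptamer and nonamer are in capitals, and in Trbv4 also the TAA at the fifth CDR3 codon.
Trbv2, chr6:41047979-41048034: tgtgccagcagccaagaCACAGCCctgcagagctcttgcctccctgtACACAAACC
Trbv4, chr6:41059870-41059925: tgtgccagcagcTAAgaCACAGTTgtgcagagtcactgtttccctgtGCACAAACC
The fifth codon of the germline CDR3 encodes glutamine in Trbv2 and is a stop codon in Trbv4. Among the 21 genomic segments behind the calls, Trbv4 was the only one with an in-frame stop codon in its germline CDR3. Trbv5, used below as a comparison, has the same 17 germline CDR3 bases as Trbv2.

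TRBV2 made up 4.61% of TRB chains in the WT library (191 of 4141, exact 95% interval 3.99 to 5.30) and 4.3% in the Btla-/- library (223 of 5181, 3.77 to 4.89), and the intervals overlapped. It was the 11th of 22 calls in the first library and the 12th in the second. Its neighbours in the order were TRBV12-2 above (4.66%) and TRBV10 below (4.59%) in WT, and TRBV29 above (4.38%) and TRBV26 below (4.0%) in Btla-/-, all within the interval of TRBV2. Trbv4-matched chains made up 4.59% in WT (190 chains, 3.97 to 5.27) and 5.93% in Btla-/- (307 chains, 5.30 to 6.60), and these intervals did not overlap. That separation was lost on contigs with at least 3 UMIs, at 4.64% (4.01 to 5.33) and 5.95% (5.31 to 6.64), and with each distinct chain counted once, at 4.70% (4.06 to 5.40) and 5.94% (5.29 to 6.63). Over the 18 calls with at least 100 chains in both libraries, 11.1% had intervals apart between the libraries. All intervals cover counting error only and not the spread between mice or library preparations.

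**Figure D1:**
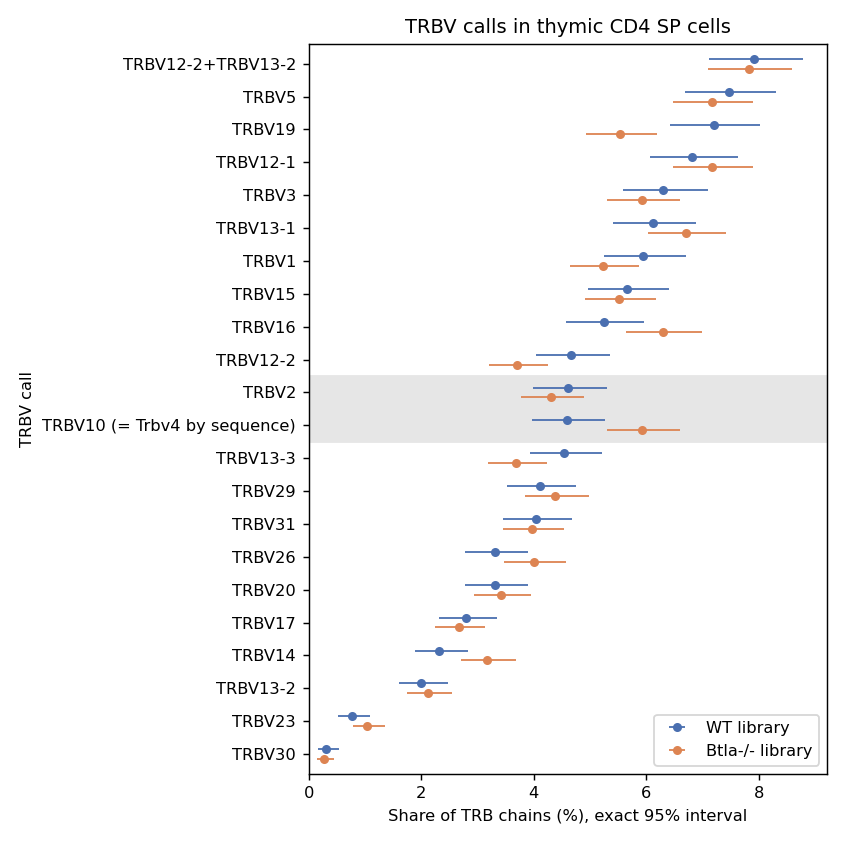
Share of TRB chains (percent, x axis) for each of the 22 TRBV calls (y axis) in the WT (blue) and Btla-/- (orange) library; points are shares, bars exact 95% intervals, and grey bands mark TRBV2 and TRBV10, whose chains match Trbv4. TRBV2 sits at 4.61% and 4.3% with overlapping intervals, and TRBV10 at 4.59% and 5.93% with intervals just apart.

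TRBV2 chains kept more of their germline CDR3 start, on average, than the chains of any other call with at least 100 chains in both libraries. All 17 bases were present in 95 of 191 WT chains (49.7%, 42.4 to 57.0) and in 111 of 223 Btla-/- chains (49.8%, 43.0 to 56.5), against 22.1% (20.8 to 23.5) and 22.0% (20.9 to 23.2) of other TRB chains with their own germline ends. Of the 18 calls, 72.2% stood apart from the other chains in the same direction in both libraries on this measure, so that standing apart was common, and no call (0%) had intervals apart between the libraries. The 72.2% includes the Trbv4-matched chains, where a productive chain cannot hold all 17 bases because of the stop codon. The mean number of bases trimmed from TRBV2 was 1.41 ± 1.78 (SD over 191 chains) in WT and 1.49 ± 1.92 (223 chains) in Btla-/-, the fewest of the 18 calls in each. The next calls in share kept whole were TRBV31 in WT (38.3%, 30.9 to 46.2) and TRBV1 in Btla-/- (43.9%, 37.9 to 50.0), and both intervals overlapped that of TRBV2. TRBV5, with the same 17 bases, kept them all in 36.9% of WT chains (31.5 to 42.5) and 36.7% of Btla-/- chains (31.7 to 41.8), a share whose interval overlapped that of TRBV2 in WT and lay below it in Btla-/-. Bases kept were counted from the first CDR3 base to the first mismatch, so an added base that equals the germline is counted as kept.

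Trbv4-matched chains were cut back further. None of them kept more than 14 of the 17 bases, and the most frequent number was 12, the bases before the stop codon, in 90 of 190 WT chains (47.4%, 40.1 to 54.7) and 134 of 307 Btla-/- chains (43.6%, 38.0 to 49.4). The mean was 12.2 ± 1.03 bases (SD over 190 chains) in WT and 12.2 ± 1.15 (307 chains) in Btla-/-. In TRBV3, too, 0 of 261 WT and 0 of 307 Btla-/- chains kept all of the 21 germline bases. Its mean number of bases trimmed was 7.35 and 7.55, against 4.81 and 4.78 for Trbv4-matched chains. The deposited files hold productive chains only, in which the germline TAA cannot remain. For Trbv4-matched chains the maximum of 14 kept bases, and with it part of the trimming, is thus set by that filter. In 17 WT and 37 Btla-/- chains the first bases of that codon, TA, were present. The base after them was C in 34 and T in 20 of these 54 chains, which makes the codon tyrosine. It was A or G in 0, which would make it a stop and which the same filter excludes. The part of the CDR3 after the V bases was in turn the longest of the 18 calls in both libraries, with 30.4 ± 4.55 bases in WT and 30.2 ± 4.25 in Btla-/- (SD over chains), beside 29.1 ± 4.37 and 28.5 ± 4.64 for TRBV2.

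**Figure D2:**
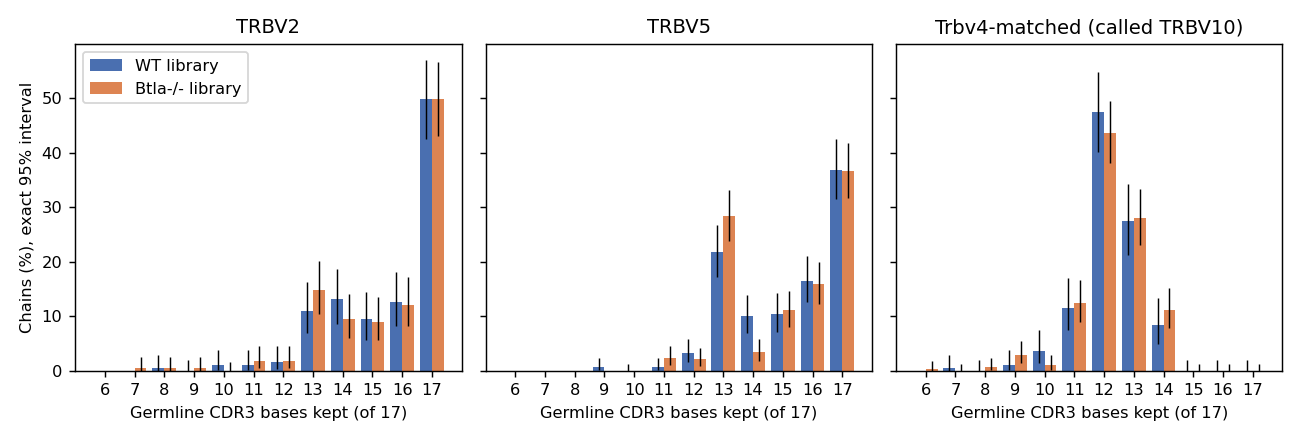
Number of germline CDR3 bases kept, out of 17 (x axis), against the percent of chains (y axis) for TRBV2, TRBV5 and Trbv4-matched chains; bars are shares per library with exact 95% intervals. TRBV2 peaks at 17 bases (49.7% and 49.8%), TRBV5 less so (36.9% and 36.7%), and Trbv4-matched chains peak at 12 with none above 14.

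The residues of the CDR3 followed these ends. At position 5, TRBV2 carried the germline glutamine in 150 of 191 WT chains (78.5%, 72.0 to 84.1) and 170 of 223 Btla-/- chains (76.2%, 70.1 to 81.7). At position 6, where the germline leaves the bases GA to be completed, aspartate (66 and 69 chains) and glutamate (38 and 52 chains) were the most frequent residues. Position 5 of Trbv4-matched chains had no such leading residue. It was proline in 44 WT chains (23.2%, 17.4 to 29.8) and 57 Btla-/- chains (18.6%, 14.4 to 23.4), followed by serine (26 and 42 chains) and leucine (24 and 37 chains). Position 6 was most often glycine, in 59 WT (31.1%) and 80 Btla-/- chains (26.1%), a residue that D segments often encode.

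The charge of the loop differed with them. The net charge of the CDR3 (lysine and arginine minus aspartate and glutamate) averaged -0.99 ± 1.06 over TRBV2 chains in WT and -0.96 ± 1.06 in Btla-/- (SD over chains), beside -0.69 ± 1.04 and -0.69 ± 1.06 for the other TRB chains. It was negative in 70.2% (63.1 to 76.5) and 67.3% (60.7 to 73.4) of TRBV2 chains and in 57.5% (56.0 to 59.1) and 58.7% (57.3 to 60.0) of the others and the intervals were apart in both libraries, as they were for 44.4% of the 18 calls. On contigs with at least 3 UMIs the Btla-/- intervals overlapped, at 66.3% (59.4 to 72.8) against 58.7% (57.3 to 60.1). Counted from position 7 on, past the reach of Trbv2 germline bases, the TRBV2 average was -0.58 in WT and -0.52 in Btla-/-. The other chains averaged -0.65 and -0.64, so the lower charge of TRBV2 lay in the first 6 positions. Among the other chains, TRBV3 has 21 germline bases, which reach position 7. Trbv4-matched chains averaged -0.47 ± 0.96 and -0.50 ± 0.91 over the whole CDR3, and 51.6% (44.2 to 58.9) and 52.1% (46.4 to 57.8) of them were negative. The interval of Trbv4-matched chains lay below that of the other chains in Btla-/- and overlapped it in WT. In Btla-/- it overlapped too on contigs with at least 3 UMIs (52.3%, 46.5 to 58.1, against 59.4%, 58.0 to 60.8) and in cells with exactly 1 TRB chain (52.9%, 47.0 to 58.7, against 59.8%, 58.3 to 61.2). From position 7 on, Trbv4-matched chains averaged -0.77 and -0.65, beside -0.64 and -0.63 for the other chains. There 66.3% (59.1 to 73.0) and 61.2% (55.5 to 66.7) were negative. The other chains had 58.8% (57.3 to 60.4) and 57.9% (56.5 to 59.2), and the intervals overlapped. Hydrophobic residues at both positions 6 and 7, a feature known from self-reactive receptors, were found in 2 of 191 WT (1.05%, 0.127 to 3.73) and 3 of 223 Btla-/- TRBV2 chains (1.35%, 0.278 to 3.88), against 2.43% and 2.14% of other chains. The counts for Trbv4-matched chains were 1 of 190 (0.526%) and 8 of 307 (2.61%). None of these shares was distinguishable from that of the other chains at this depth.

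TRBV2 chains had long CDR3s. The mean length was 14.9 ± 1.48 amino acids (SD over 191 chains) in WT and 14.7 ± 1.64 (223 chains) in Btla-/-, against 14.2 ± 1.51 for other TRB chains in each library. TRBV2 ranked first of the 18 calls in WT, just above TRBV5 (14.8), and behind TRBV1 (14.8) and TRBV5 (14.7) in Btla-/-. A CDR3 of 15 or more amino acids, a limit chosen after lengths had been seen, was present in 69.6% of TRBV2 chains in WT (133 of 191, 62.6 to 76.1) and 52.5% in Btla-/- (117 of 223, 45.7 to 59.2). Other chains reached it in 41.7% (40.2 to 43.3) and 43.4% (42.0 to 44.8). At this limit TRBV2 stood apart from the other chains in both libraries, as 27.8% of the 18 calls did. In WT it also did at limits of 14 and 16 amino acids and on contigs with at least 3 UMIs. In Btla-/- the intervals were apart at 16 (28.3% against 19.0%, 17.9 to 20.1) but overlapped at 14 (78.9%, 73.0 to 84.1, against 72.7%, 71.4 to 73.9) and, at the limit of 15, on contigs with at least 3 UMIs (51.7%, 44.6 to 58.7, against 43.5%, 42.1 to 44.9). Trbv4-matched chains were of usual length, with means of 14.2 ± 1.53 and 14.1 ± 1.45 and 42.6% (35.5 to 50.0) and 39.7% (34.2 to 45.5) at 15 or more.

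The TRBV2 share of 15 or more was the one among the 18 calls whose intervals were apart between the libraries (5.56% of calls). The gap was largest at lengths 14 and 15. Length 16 (20.9% in WT, 15.2% in Btla-/-) and length 13 (7.33% and 11.2%) added to it. Lengths 17 (6.81% and 8.52%) and 18 (3.14% and 3.59%) went the other way. Length 15 was the most frequent in WT, with 73 of 191 chains (38.2%, against 54 of 223, 24.2%, in Btla-/-), and length 14 in Btla-/-, with 59 of 223 chains (26.5%, against 30 of 191, 15.7%, in WT). With a limit of 14 amino acids the TRBV2 shares were 85.3% (79.5 to 90.0) in WT and 78.9% (73.0 to 84.1) in Btla-/-, and with 16 they were 31.4% (24.9 to 38.5) and 28.3% (22.4 to 34.6), and the intervals overlapped at both limits. Within chains joined to TRBJ1 genes the mean was 15 ± 1.32 in WT (77 chains) and 14.4 ± 1.51 in Btla-/- (102 chains), and within TRBJ2 it was 14.9 ± 1.57 (114 chains) and 14.9 ± 1.73 (121 chains). Chains that kept all germline bases were longer than trimmed ones in each library, at 15.2 ± 1.41 (95 chains) against 14.6 ± 1.48 (96 chains) in WT and 15.1 ± 1.78 (111 chains) against 14.2 ± 1.37 (112 chains) in Btla-/-.

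**Figure D3:**
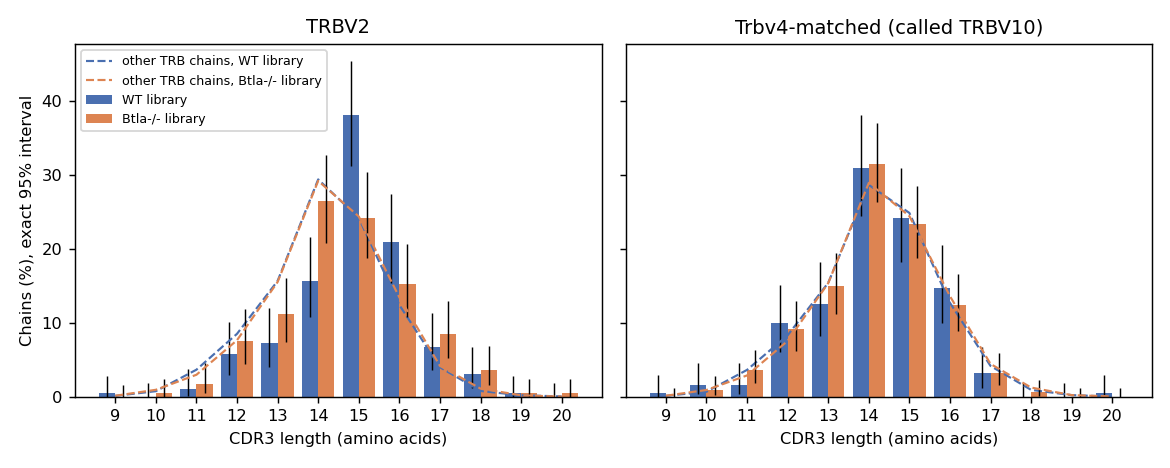
CDR3 length in amino acids (x axis) against percent of chains (y axis) for TRBV2 and Trbv4-matched chains in the WT (blue) and Btla-/- (orange) library; bars carry exact 95% intervals and dashed lines give all other TRB chains of the same library. TRBV2 is shifted to the right of the dashed lines, with a peak at 15 in WT (38.2%) and at 14 in Btla-/- (26.5%), and Trbv4-matched chains follow the dashed lines.

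Both segments were joined to TRBJ genes much as other V segments were. Over both libraries together, the 3 most frequent partners of TRBV2 were TRBJ2-7 (28 WT and 27 Btla-/- chains, 14.7% and 12.1%), TRBJ1-1 (22 and 33 chains, 11.5% and 14.8%) and TRBJ2-3 (20 and 24 chains, 10.5% and 10.8%), while TRBJ2-5 was second in WT. No TRBJ gene of the 12 stood apart from the other chains in both libraries for TRBV2 or for Trbv4-matched chains, where 1.39% of the 216 pairs of a TRBV call and a TRBJ gene did. TRBJ2-5 lay below the other chains for TRBV2 in the Btla-/- library alone, with 14 of 223 chains (6.28%, 3.47 to 10.3, against 11.4%, 10.5 to 12.3), and it was at 23 of 191 (12.0%) in WT. The TRBJ1 cluster was used in 77 of 191 WT (40.3%) and 102 of 223 Btla-/- TRBV2 chains (45.7%), against 39.8% and 39.9% of other chains, all within the TRBV2 intervals (33.3 to 47.6 and 39.1 to 52.5). Every TRBV2 chain with a constant region call paired TRBJ1 with TRBC1 and TRBJ2 with TRBC2, as did every other TRB chain with such a call.

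Trbv4-matched chains were joined most often, over both libraries together, to TRBJ2-7 (27 WT and 44 Btla-/- chains, 14.2% and 14.3%), TRBJ2-5 (27 and 39 chains, 14.2% and 12.7%) and TRBJ2-4 (27 and 35 chains, 14.2% and 11.4%). TRBJ2-3, second in Btla-/-, was the one partner with intervals apart between the libraries, with 9 of 190 chains in WT (4.74%, 2.19 to 8.80) and 41 of 307 in Btla-/- (13.4%, 9.76 to 17.7), while other chains used it in 8.93% and 8.97%. Between libraries, too, 1.39% of the 216 pairs had intervals apart, and TRBV2 had 0 of 12. With each distinct chain counted once the TRBJ2-3 shares were 4.81% (2.22 to 8.94) and 12.9% (9.31 to 17.3). The other excursions held in 1 library each: TRBJ2-4 lay above the other chains in WT (14.2%, 9.58 to 20.0, against 8.33%, 7.48 to 9.23), and TRBJ1-1 below them in Btla-/- (5.86%, 3.51 to 9.11, against 11.6%, 10.7 to 12.5).

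**Figure D4:**
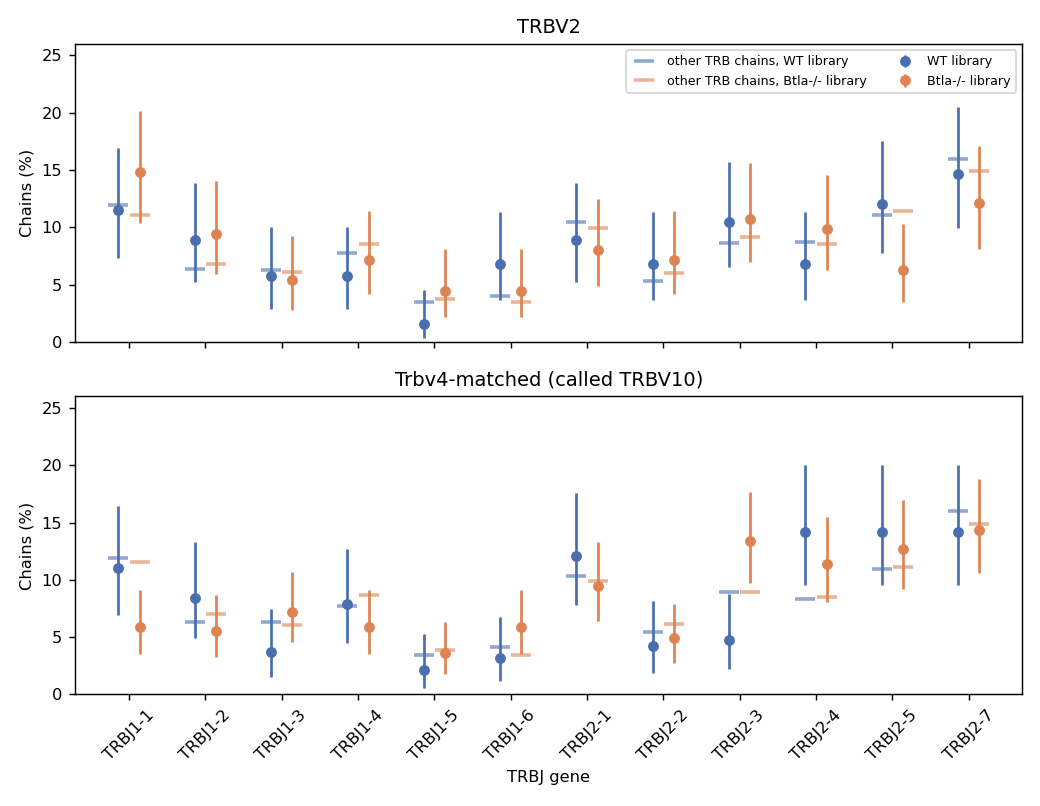
Percent of chains (y axis) joined to each of the 12 TRBJ genes (x axis) for TRBV2 (upper panel) and Trbv4-matched chains (lower panel); points with exact 95% intervals are the chains of the segment and dashes are all other TRB chains of the same library, WT in blue and Btla-/- in orange. Most intervals reach the dashes, and the libraries separate at TRBJ2-3 in the lower panel (4.74% and 13.4%).

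A TRA chain was read in 90 of the 191 WT cells that held a TRBV2 chain (47.1%, 39.9 to 54.5). In Btla-/- it was read in 94 of the 223 such cells (42.2%, 35.6 to 48.9). The share of other cells with a TRA chain was 41.5% (39.9 to 43.0) and 34.3% (32.9 to 35.6), and the intervals overlapped in WT and, only at their ends, in Btla-/-. The TRA chains of TRBV2 cells were diverse, with 101 distinct CDR3s among 102 chains in WT and 100 among 100 in Btla-/-. They used 19 of the 20 TRAV subgroups found in the files (copies marked D, N or DV folded together). The most frequent over both libraries together were TRAV6 (12 WT and 24 Btla-/- chains, 11.8% and 24%), TRAV7 (16 and 13, 15.7% and 13%) and TRAV12 (15 and 13, 14.7% and 13%), and in WT both TRAV7 and TRAV12 were above TRAV6. The intervals of TRAV6, 6.23 to 19.6 in WT and 16 to 33.6 in Btla-/-, overlapped each other, and they overlapped those of the other cells (16.2%, 14.5 to 18, and 15%, 13.3 to 16.7). TRAV9 was at 6 of 102 chains in WT (5.88%) and 0 of 100 in Btla-/-, which allows up to 3.0% and lay below the 5.81% (4.76 to 7.0) of other cells in that library. On contigs with at least 3 UMIs it was 0 of 59, which allows up to 5.08% and was not apart from the 5.57% (4.17 to 7.26) of the others. No subgroup stood apart in both libraries for either segment, and 0% of the 360 pairs of a TRBV call and a TRAV subgroup did.

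Cells with a Trbv4-matched chain had a TRA chain in 80 of 190 cases in WT (42.1%, 35.0 to 49.5) and in 99 of 307 in Btla-/- (32.2%, 27.0 to 37.8), beside 41.7% and 34.8% of the other cells. Their TRA chains also used 19 subgroups, led over both libraries together by TRAV6 (12 and 14 chains), TRAV7 (9 and 17) and TRAV12 (12 and 14). The semi-invariant chains TRAV11 with TRAJ18, of invariant natural killer T cells, and TRAV1 with TRAJ33, of mucosal-associated invariant T cells, were found 0 times beside either segment, which allows up to 2.94% and 3.0% of the TRA chains of TRBV2 cells and 3.49% and 2.75% of those of Trbv4-matched cells. The other cells, at 8 of 1729 and 9 of 1757 TRA chains for TRAV11 with TRAJ18, were below these limits.

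TRBV2 chains rested on fewer transcripts, by the median, than the chains of any of the other ranked calls. A unique molecular identifier (UMI) marks 1 captured transcript molecule. The median was 7 UMIs per TRBV2 chain in WT (quartiles 4 and 13) and 6 in Btla-/- (4 and 12), against 13 (8 and 22) and 10 (6 and 17) for other TRB chains. TRBV20 came next, at 8 and 7. A count below the median of all TRB chains of the library was seen in 72.8% of TRBV2 chains in WT (65.9 to 79.0) and 66.8% in Btla-/- (60.2 to 73.0), and in 46.3% (44.7 to 47.8) and 46.1% (44.7 to 47.5) of the others. Of the 18 calls, 44.4% stood apart from the other chains in both libraries on this share, in either direction, and 0% between the libraries. Chains with fewer than 3 UMIs made up 7.85% (4.46 to 12.6) and 8.07% (4.85 to 12.5) of TRBV2 chains and 1.82% (1.43 to 2.29) and 2.46% (2.05 to 2.93) of the others.

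The TRA chains of the same cells did not have fewer UMIs. They had a median of 4 UMIs in WT and 3 in Btla-/-, beside 3 and 3 in the other cells. The lower TRBV2 count was also seen in cells with a single TRB chain (median 7 and 6, other chains 14 and 10) and in cells with a TRA chain (6.5 and 6, other chains 13 and 10). In the 10 WT and 13 Btla-/- TRBV2 cells with more than 1 TRB chain, TRBV2 had fewer UMIs than the other chain in 6 and 7 cells, more in 4 and 4, and as many in 0 and 2. Reads moved the same way, with medians of 1828 and 1462 per TRBV2 chain and 4298.5 and 2947.5 per other chain. Trbv4-matched chains had medians of 12 (quartiles 8 and 19) and 9 UMIs (6 and 14), and their shares below the library median, 52.6% (45.3 to 59.9) and 53.7% (48.0 to 59.4), overlapped those of the other chains in WT and stood just above them in Btla-/- (46.6%, 45.1 to 48.0). In Btla-/- cells with exactly 1 TRB chain they overlapped, at 52.9% (47.0 to 58.7) against 46.1% (44.6 to 47.5).

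**Figure D5:**
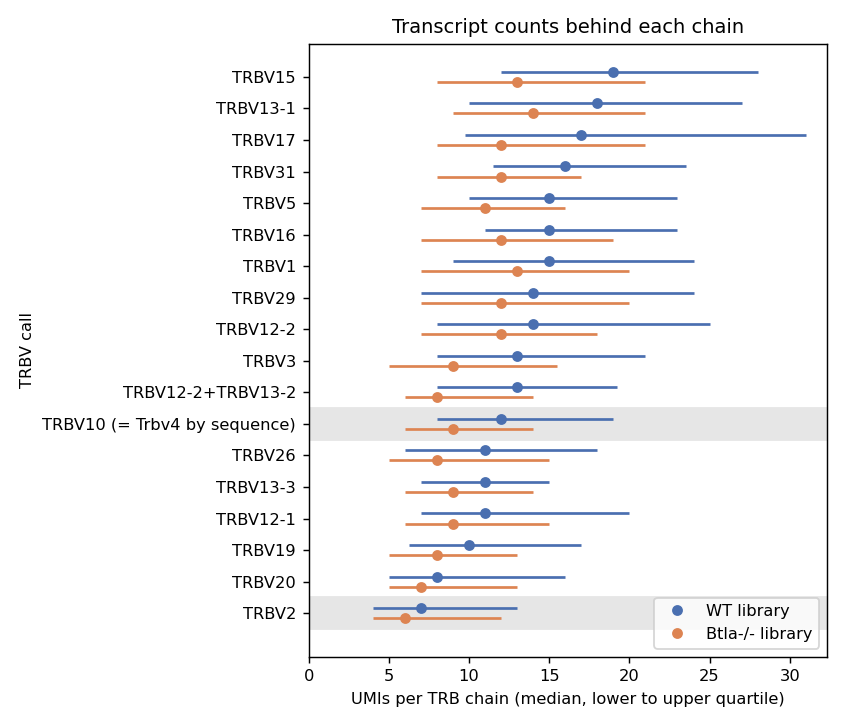
UMIs per TRB chain (x axis) for the 18 TRBV calls with at least 100 chains in both libraries (y axis, ordered by the WT median); points are medians and lines run from the lower to the upper quartile, WT in blue and Btla-/- in orange. TRBV2 is lowest in both libraries, at 7 and 6, and TRBV10, whose chains match Trbv4, is at 12 and 9.

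Most TRBV2 chains were seen once. The 191 WT chains held 185 distinct combinations of J gene and CDR3 nucleotides and the 223 Btla-/- chains 217, and in each library 6 of these were present in 2 cells. Repeated sequences covered 6.28% of TRBV2 chains in WT (3.29 to 10.7) and 5.38% in Btla-/- (2.81 to 9.21), against 6.79% and 8.69% over all TRB chains. Trbv4-matched chains had 3 repeated sequences in WT (3.16% of chains, 1.17 to 6.75) and 13 in Btla-/- (8.47%, 5.61 to 12.2), each in 2 cells. In both libraries together, 1 TRBV2 CDR3 was found with the same nucleotides and 3 with the same amino acids, where all TRB chains gave 3 and 18. By nucleotides this was 0.541% of distinct TRBV2 sequences in WT and 0.461% in Btla-/-, beside 0.0754% and 0.0606% over all TRB chains. By amino acids it was 1.63% and 1.39%, beside 0.454% and 0.364%. Trbv4-matched chains gave 0 and 0. With 187 and 294 distinct sequences, 0 cannot be told from the share over all chains. The shared TRBV2 sequences are shown because all of them kept the whole germline start, in capitals here and in the lines that follow.
TRBV2 and TRBJ2-5, same nucleotides in WT and Btla-/-: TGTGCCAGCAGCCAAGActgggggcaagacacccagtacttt
TRBV2 and TRBJ1-1, WT: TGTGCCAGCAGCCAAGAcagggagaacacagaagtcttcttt
TRBV2 and TRBJ1-1, Btla-/-: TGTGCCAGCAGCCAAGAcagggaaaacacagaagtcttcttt
TRBV2 and TRBJ1-4, WT: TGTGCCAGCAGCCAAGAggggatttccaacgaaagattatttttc
TRBV2 and TRBJ1-4, Btla-/-: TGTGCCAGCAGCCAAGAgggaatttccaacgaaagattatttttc
Each was carried by 1 cell per library. The chain with the same nucleotides was paired with TRAV6-3 and TRAJ27 in the WT cell and with TRAV1 and TRAJ7 in the Btla-/- cell, so the cells did not share a whole receptor.

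Among repeats within a library, a single TRBV2 sequence of WT and 3 Trbv4-matched sequences of Btla-/- came with an identical TRA chain in both cells. These are shown as the receptors that were recovered whole more than once; they were chosen after the values had been seen.
TRBV2 and TRBJ2-5, WT, with TRAV12-1 and TRAJ12: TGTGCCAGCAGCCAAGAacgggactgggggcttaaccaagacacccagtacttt
Trbv4-matched and TRBJ1-1, Btla-/-, with TRAV7D-3 and TRAJ16: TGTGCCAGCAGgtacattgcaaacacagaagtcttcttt
Trbv4-matched and TRBJ1-2, Btla-/-, with TRAV5N-4 and TRAJ33: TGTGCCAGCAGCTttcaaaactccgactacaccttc
Trbv4-matched and TRBJ2-4, Btla-/-, with TRAV16 and TRAJ49: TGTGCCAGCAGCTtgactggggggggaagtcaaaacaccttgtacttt
The TRBV2 pair had 2 and 6 UMIs on its beta chains, and the Trbv4-matched pairs had 5 and 13, 8 and 11, and 5 and 7. In Btla-/-, 3 repeated TRBV2 sequences and 1 repeated Trbv4-matched sequence came with a different TRA chain in each of the 2 cells. For the other repeats a TRA chain was read in 1 cell or in none.

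The libraries shared 30 cell barcodes. Of the chains described here, 2 WT and 2 Btla-/- TRBV2 chains and 1 WT and 2 Btla-/- Trbv4-matched chains belonged to such barcodes. These were too few to move a share outside its interval, so leaving them out could not show an effect.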

How the data were processed

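CD4 SP thymocytes of 1 WT and 1 Btla-/- library were profiled with 10x V(D)J sequencing. Per the labels and the submitters' processing notes, the authors used Cell Ranger 7.2.0 with GRCm38. The deposited files list productive contigs of called cells, each with its count of reads and of UMIs as the authors' pipeline gave them, not normalized; PCR reads are not independent molecules, and UMIs were used for depth. The libraries held 4141 and 5181 TRB and 1862 and 1920 TRA contigs, with median TRB counts of 13 and 10 UMIs. The summary tables that the authors made from these contigs were not used.

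Every productive contig was used, and no step removed droplets with several cells. V regions were compared with the GENCODE M21 segments of GRCm38 and RefSeq positions. Chains of a call were compared with all other TRB chains of the same library. Shares carry exact (Clopper-Pearson) 95% binomial intervals, and values were called apart when the intervals did not overlap; a share of 0 is given with the limit of 3 counts. No test was made, since each genotype had 1 library. Calls with at least 100 chains in both libraries (18) were ranked. Partners named were the 3 most frequent and those standing apart; sequences were germline ends and CDR3s shared or repeated (at most 6 per gene); genes that stood apart in 1 library were named after their values were seen. The members and lists were chosen with earlier results of these data known. Intervals were tested on simulated data. The counting of germline bases was also run on simulated chains. There the first base after a trimmed end always differed from the germline, so added bases that equal the germline were not tested. Python 3.11.15, pandas 2.3.3, scipy 1.17.1 and matplotlib 3.10.9 were used. Alternatives were contigs with at least 3 UMIs, distinct chains counted once, shared barcodes left out, cells with 1 TRB (and 1 TRA) chain, the TRB contig with most reads, reads for UMIs, the median length, amino acid identity and a strict hydrophobic set; length limits of 14 and 16, and a recomputation of both sides of the comparisons under these alternatives, were added after the data were seen.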

Additional observations from a re-analysis of the deposited data

How the results depend on the processing

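Of the alternative values that answer a comparison, 103 stayed within the range set for the main value and 11 moved. For a share that range was its interval, for a count a range around it, and for a mean length the SD over chains. That SD was so wide that mean and median lengths could hardly leave it. Shares at limits of 14 and 16 amino acids were set against the interval at 15, so their move follows from the limit. The tally therefore says little about robustness. Some calls of intervals apart were nevertheless lost, all of them resting on the Btla-/- library. With at least 3 UMIs the Trbv4-matched share against WT was lost. Against other chains, so were long CDR3s of TRBV2, negative charge of both segments and the low TRAV9 share of TRBV2 cells. Counting distinct chains once cost the Trbv4-matched share, and cells with 1 TRB chain the charge and UMI calls of Trbv4-matched chains. A limit of 14 amino acids cost the TRBV2 length call against other chains. Limits of 14 and 16 both cost the TRBV2 length call between the libraries. Reads in place of UMIs raised the share of TRBV2 chains below the library median to 82.2% in WT and 74.4% in Btla-/-. Identity by amino acids in place of nucleotides raised the number of TRBV2 CDR3s found in both libraries to 3. With a limit of 14 amino acids the shares of long CDR3s were 85.3% and 78.9% for TRBV2 and 73.7% and 71.3% for Trbv4-matched chains in WT and Btla-/-, and with a limit of 16 they were 31.4% and 28.3%, and 18.4% and 16.3%; at neither limit were the libraries apart for any of the 18 calls. No paired analysis was possible because each genotype had 1 library. Depth limits the TRAV pairing: 86 to 109 TRA chains stood beside each segment in a library, so an absent subgroup may hold up to 2.75% to 3.49%. Differences between mice and between library preparations cannot be told apart from the genotype.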
